A study of Mus musculus with 13 samples.

Results

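The messenger RNA of piRNA pathway and chromatoid body genes was followed in round spermatids for 10 genes, Piwil1, Piwil2, Piwil4, Tdrd1, Tdrd5, Tdrd6, Tdrd7, Ddx4, Mael and Mov10l1. They were listed by name, and every array probe annotated to one of them was taken, which gave 16 probes for these 10 of the 19057 genes with a probe of 1 gene name. Each of 13 preparations was hybridised to its own Illumina mouse array, and a level here is a normalized log2 intensity. All males were of the MF1YRIII background and about 8 weeks old. The 4 WT preparations carried no transgene. The 3 shSLY preparations carried a short hairpin RNA transgene against Sly, a Y-linked multicopy gene. The 3 shSLX1 preparations carried one against its X-linked relatives Slx and Slxl1, and the 3 shSLX1shSLY preparations carried both. Each line is a transgenic knockdown and not a gene deletion, and each preparation pooled round spermatids separated from the testes of several males by elutriation or by sedimentation.

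piRNAs are small RNAs of germ cells that are bound by PIWI proteins and guide them to transposon and other transcripts. PIWI proteins, Tudor domain proteins and RNA helicases gather in cytoplasmic granules, and in round spermatids these merge into the chromatoid body, a single dense granule beside the nucleus. The array measures messenger RNA of these genes and says nothing of piRNA levels, protein or the granule itself.

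None of the members was called in any comparison. A call required that limma's p, adjusted by Benjamini-Hochberg, lay under 0.05 and that the fold change passed 1.5. A detected signal was obtained for 8 of the 10 genes. Piwil2 was the member with the smallest p in shSLY against WT, and in shSLX1shSLY against WT 3 of the 8, Tdrd1, Tdrd5 and Ddx4, had an unadjusted p under 0.05, against 31.0% of all features. Their differences there were negative, but the second Ddx4 probe gave 1.502, and Tdrd5 came to −0.086 with the array set as a block. All of these lie short of the threshold. In bulk RNA of a cell fraction, fewer cells of a type and less RNA per cell cannot be told apart.

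The whole series gives the setting for these values. Between 16110 and 19057 probes were detected on an array, and arrays of a group correlated with each other at 0.976 to 0.996. The 7 detected round spermatid markers had summed intensities of 73911 to 85553 on the arrays, and the 6 detected meiotic markers 3194 to 6957, with Sycp3, Hormad1 and Dmc1 not detected. The median log2 intensity of the round spermatid markers was 13.14 to 13.22 on WT and 12.62 to 12.85 on shSLX1shSLY. It was 12.70 to 13.19 on shSLY and 12.70 to 13.01 on shSLX1. For shSLX1shSLY against WT, Tnp1 differed by −0.63 (adjusted p = 0.0547, limma), Dkkl1 by −0.45 (adjusted p = 0.0503) and Crem by −0.21. Acrv1, Prm1, Spaca1 and Catsper1 differed by 0.024, 0.11, 0.38 and 0.011. The median over the meiotic markers was 0.30, from −0.65 for Sycp2 to 1.02 for Sycp1. The markers of spermatogonia, Sertoli, Leydig, macrophage and red blood cells were summed at 1173 or less on every array. Of all the markers 1 was called, the macrophage gene Adgre1, with differences of 0.90 for shSLX1shSLY against WT and 1.00 against shSLX1. The 3 other detected macrophage markers were not called, with differences of −0.89 and −1.47 for Lyz2, 0.064 and 0.25 for Cd14 and 0.38 and 0.037 for Csf1r in the same comparisons. Hba-a1, the 1 red blood cell marker detected, differed by 1.96 for shSLY against WT (adjusted p = 0.178, limma). It differed by −3.22 for shSLX1shSLY against shSLY (adjusted p = 0.0872), and Hbb-b1 and Alas2 were not detected. Insl3 of Leydig cells differed by 1.28 for shSLY against WT (adjusted p = 0.0673). The other detected Leydig markers, Cyp17a1 and Cyp11a1, differed there by 0.52 (adjusted p = 0.180) and −0.050 (adjusted p = 0.911). The part of these cells in the members' values was not tested. The probe for Sly lay at 9.85 to 10.35 on the WT arrays and at 10.08 to 10.71 on the arrays labelled shSLY. It lay at 9.22, 8.65 and 10.21 on shSLX1 and at 10.30 to 10.63 on shSLX1shSLY. Sly signal of this probe in shSLY was thus no weaker than in WT. By real time PCR the authors found Sly RNA reduced in shSLY round spermatids. Their Western blots detected no SLY1 protein in shSLY or shSLX1shSLY. They hold non-coding Sly transcripts to be the likely reason why RNA and protein levels differed. The sources used here do not give which of the multicopy Sly transcripts the array probe detects. It is thus no check of the labels, and groups are named as their labels name them. The arrays also fell into 3 sets by the signals of probes detected on no array. WT and shSLY replicates 1 and 2 formed set 1. WT replicates 3 and 4 and shSLX1 replicates 1 and 2 formed set 2. Set 3 was made up of replicate 3 of shSLY, replicate 3 of shSLX1 and all of shSLX1shSLY. The comparison of shSLX1shSLY with WT therefore runs between sets. The part of the set in it was not tested apart from the values with the set as a block. The median of the round spermatid markers lay at 12.62 to 12.85 on all arrays of set 3, those of the single lines included. On all arrays of sets 1 and 2 it lay at 12.88 to 13.22. The part of the set in this median was not tested.

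Piwil1 encodes MIWI, the PIWI protein that binds the piRNAs of pachytene spermatocytes and round spermatids. It lies at chr5:128736071-128755474 (GRCm38.p6) and both of its probes were detected on all 13 arrays. On WT arrays it read 11.15, 10.89, 10.52 and 10.69 in log2 intensity, with 10.94, 10.89 and 10.55 on shSLY, 10.26, 10.59 and 10.45 on shSLX1, and 10.62, 10.44 and 10.66 on shSLX1shSLY. The shSLX1 arrays lay low, and only replicate 2 of them reached the range of WT. The difference between shSLX1 and WT was −0.38 (standard error 0.16, 95% interval −0.73 to −0.031, unadjusted p = 0.0349, adjusted p = 0.362, limma). The second Piwil1 probe gave −0.096 (standard error 0.14, adjusted p = 0.837). Within set 2, which holds 2 arrays of each group, the Piwil1 difference of shSLX1 from WT was −0.18, and in the fit with array set as a block it was −0.19.

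Piwil2 encodes MILI, a PIWI protein present from fetal germ cells to round spermatids, and lies at chr14:70372477-70436898. Its log2 intensity was 9.15, 9.04, 8.94 and 9.19 on WT, 9.32, 9.38 and 9.60 on shSLY, 9.03, 8.96 and 8.98 on shSLX1, and 9.21, 9.33 and 9.49 on shSLX1shSLY. All arrays of both groups with the shSLY transgene lay above all WT and all shSLX1 arrays. The nearest were shSLX1shSLY replicate 1 at 9.21 and WT replicate 4 at 9.19. In either direction, arrays did not overlap for 17.3% of all features in shSLY against WT and 34.8% in shSLX1shSLY against WT. The share was 26.3% in shSLX1shSLY against shSLX1, and that over the pooled groups was not counted. The difference was 0.35 for shSLY against WT, a 1.28-fold higher level (standard error 0.13, 95% interval 0.079 to 0.62, unadjusted p = 0.0149, adjusted p = 0.186, limma). It was 0.26 for shSLX1shSLY against WT (95% interval −0.011 to 0.53, adjusted p = 0.178), and 0.35 for shSLX1shSLY against shSLX1 (95% interval 0.061 to 0.64, adjusted p = 0.120). The 2 comparisons with WT share the 4 WT arrays, and the interaction of the transgenes was 0.00038 (standard error 0.19). With the array set as a block the Piwil2 difference from WT was 0.33 for shSLY and 0.14 for shSLX1shSLY, and within set 1 the shSLY difference was 0.25.

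Piwil4, which encodes the fetal PIWI protein MIWI2, had 2 probes, and neither was detected on 3 or more arrays at the limit of 0.05 on the detection p. One of them lay at 4.33 to 5.15 over the 13 arrays and the other at 4.34 to 4.72. The first passed the limit on 1 array, shSLX1shSLY replicate 1. Mael, which encodes the piRNA factor Maelstrom, had 1 probe, at 4.23 to 4.68, detected on no array. These probes gave no level for the transcripts, and Piwil4 and Mael enter no comparison. A probe that was not detected does not show that the RNA was low. Of Ddx4, 1 probe was detected on no array, while another annotated to the same RefSeq transcript averaged 9.94.

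The Tudor domain proteins bind methylated PIWI proteins and build the granules. Tdrd1 (chr19:56826171-56870012) encodes a partner of MILI, and 1 of its 3 probes was detected, the one annotated to another RefSeq transcript than the rest. That probe lay at 7.32, 7.45, 7.59 and 7.73 on WT, at 7.66, 7.58 and 7.68 on shSLY, at 7.14, 7.48 and 7.31 on shSLX1, and at 7.11, 7.42 and 7.05 on shSLX1shSLY. The shSLX1shSLY arrays lay below all shSLY arrays and overlapped WT by replicate 2. The difference between shSLX1shSLY and WT in Tdrd1 was −0.33, which is 0.796-fold (standard error 0.14, 95% interval −0.64 to −0.020, adjusted p = 0.138, limma), and that between shSLX1shSLY and shSLY was −0.45 (standard error 0.15, 95% interval −0.78 to −0.12, adjusted p = 0.161).

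Tdrd5 (chr1:156255296-156304304) encodes a protein needed for transposon silencing and for the chromatoid body. Its log2 intensity was 6.46, 6.38, 6.56 and 6.71 on WT, 6.67, 6.64 and 6.62 on shSLY, 6.28, 6.60 and 5.92 on shSLX1, and 6.18, 6.13 and 6.17 on shSLX1shSLY. The shSLX1shSLY arrays lay below every WT and shSLY array, and spanned 0.050 among themselves. The difference was −0.37, or 0.775-fold, against WT (standard error 0.15, 95% interval −0.69 to −0.041, adjusted p = 0.119, limma) and −0.48 against shSLY (standard error 0.16, 95% interval −0.83 to −0.14, adjusted p = 0.155). With the array set as a block the difference of Tdrd5 from WT was −0.086 (adjusted p = 0.901).

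Tdrd6 (chr17:43615334-43631846), which encodes a scaffold of the chromatoid body, was at 13.77, 13.71, 13.83 and 13.72 on WT and at 13.68, 13.58 and 13.73 on shSLY. On shSLX1 it was at 13.06, 13.77 and 13.86, and on shSLX1shSLY at 13.97, 13.73 and 13.80. Replicate 1 of shSLX1 stood 0.71 below the next array of its group in Tdrd6, and the rest of the arrays lay between 13.58 and 13.97. No difference of Tdrd6 reached an unadjusted p under 0.05, and without that array the difference of shSLX1 from WT was 0.059 in place of −0.19.

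Tdrd7 (chr4:45965027-46034766) encodes a chromatoid body protein that acts on retrotransposon transcripts and their translation. Its log2 intensity was 12.79, 12.87, 13.25 and 13.33 on WT, 12.75, 12.61 and 12.99 on shSLY, 13.03, 13.11 and 13.20 on shSLX1, and 13.28, 13.14 and 13.39 on shSLX1shSLY. All shSLX1shSLY arrays lay above all shSLY arrays, while WT overlapped both groups. The difference in Tdrd7 between shSLX1shSLY and shSLY was 0.49 (standard error 0.17, 95% interval 0.13 to 0.85, adjusted p = 0.159, limma). Without shSLY replicate 3, the array of set 3, it was 0.59 with a limma adjusted p of 0.0417, and it was 0.22 once array set entered as a block. Over the arrays left out in this comparison 0 to 1863 features were called, against 15 with all arrays.

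The helicases complete the set. Ddx4 (chr13:112598333-112652633) encodes the mouse VASA homologue, an RNA helicase that marks germ cells and the chromatoid body. The probe with its highest mean (ILMN_1250802) lay at 10.01, 9.92, 10.40 and 10.40 on WT, at 9.90, 9.96 and 10.24 on shSLY, at 10.32, 10.06 and 9.42 on shSLX1, and at 9.16, 10.40 and 9.09 on shSLX1shSLY. Replicates 1 and 3 of shSLX1shSLY and replicate 3 of shSLX1 were low, and replicate 2 of shSLX1shSLY matched the highest WT array. The difference between shSLX1shSLY and WT was −0.63, or 0.644-fold (standard error 0.29, 95% interval −1.25 to −0.025, adjusted p = 0.146, limma). Without shSLX1shSLY replicate 2 it was −1.06 with a limma adjusted p of 0.0334. Over the arrays left out in turn, 262 to 1744 of 14660 features were called. With all arrays kept and array quality weights the Ddx4 difference was −0.67 with an adjusted p of 0.0299, and 2200 features were called. In the fit with array set as a block it was −0.41 with an adjusted p of 0.778.

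A second Ddx4 probe (ILMN_2827588) was detected on 12 of the 13 arrays, and it moved otherwise. It lay at 7.17, 6.67, 6.41 and 4.44 on WT, at 7.19, 7.34 and 5.23 on shSLY, at 8.08, 5.80 and 9.10 on shSLX1, and at 5.21, 8.71 and 9.10 on shSLX1shSLY. The value of 4.44, on WT replicate 4, was not a detected signal (detection p of 0.495), and it lowers the WT mean. Arrays of 1 group differed by up to 3.89 on this probe, far more than on the first. Its difference between shSLX1shSLY and WT was 1.502 (standard error 0.94, 95% interval −0.50 to 3.50, adjusted p = 0.278, limma), opposite in sign to that of the first probe, and the correlation of the 2 Ddx4 probes over the 13 arrays was −0.29. The third Ddx4 probe was detected on no array. The direction of Ddx4 thus differs between its probes.

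**Figure D1:**
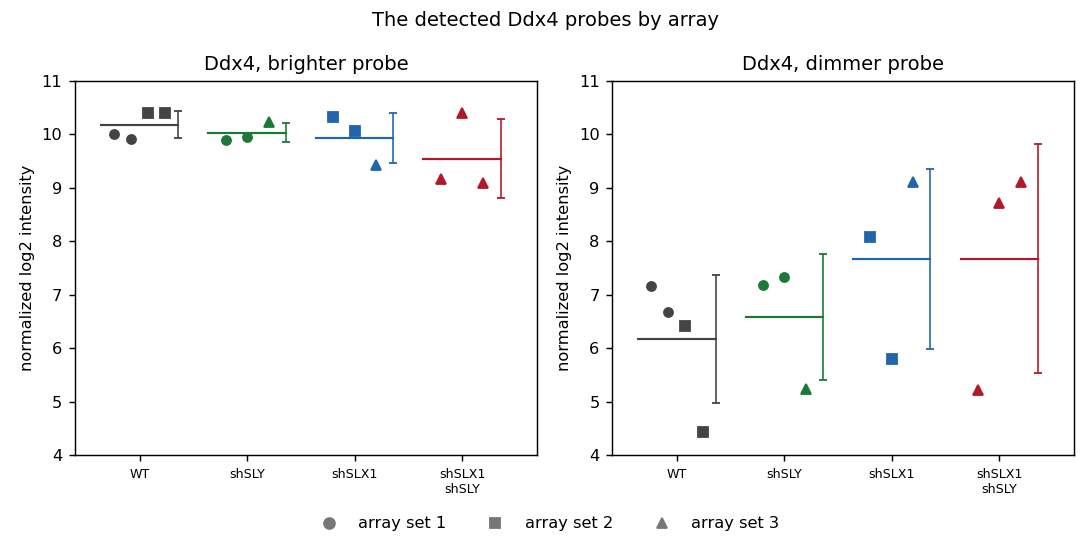
Normalized log2 intensity of the detected Ddx4 probes on each array, by group, with the probe of highest mean on the left. Points are arrays, with the symbol giving the array set, lines are group means and bars are 1 SD. In shSLX1shSLY the left probe lies at 9.16, 10.40 and 9.09 and the right probe at 5.21, 8.71 and 9.10.

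Mov10l1 (chr15:88982891-89055152) encodes an RNA helicase that binds piRNA precursor transcripts. It was at 7.62, 7.58, 7.21 and 7.44 on WT, at 7.77, 7.83 and 7.64 on shSLY, at 7.73, 7.81 and 7.44 on shSLX1, and at 7.64, 7.38 and 7.88 on shSLX1shSLY. The shSLY arrays lay above all WT arrays, by 0.014 for the nearest pair. The difference was 0.28 in Mov10l1 (standard error 0.16, 95% interval −0.050 to 0.62, adjusted p = 0.422, limma).

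**Figure D2:**
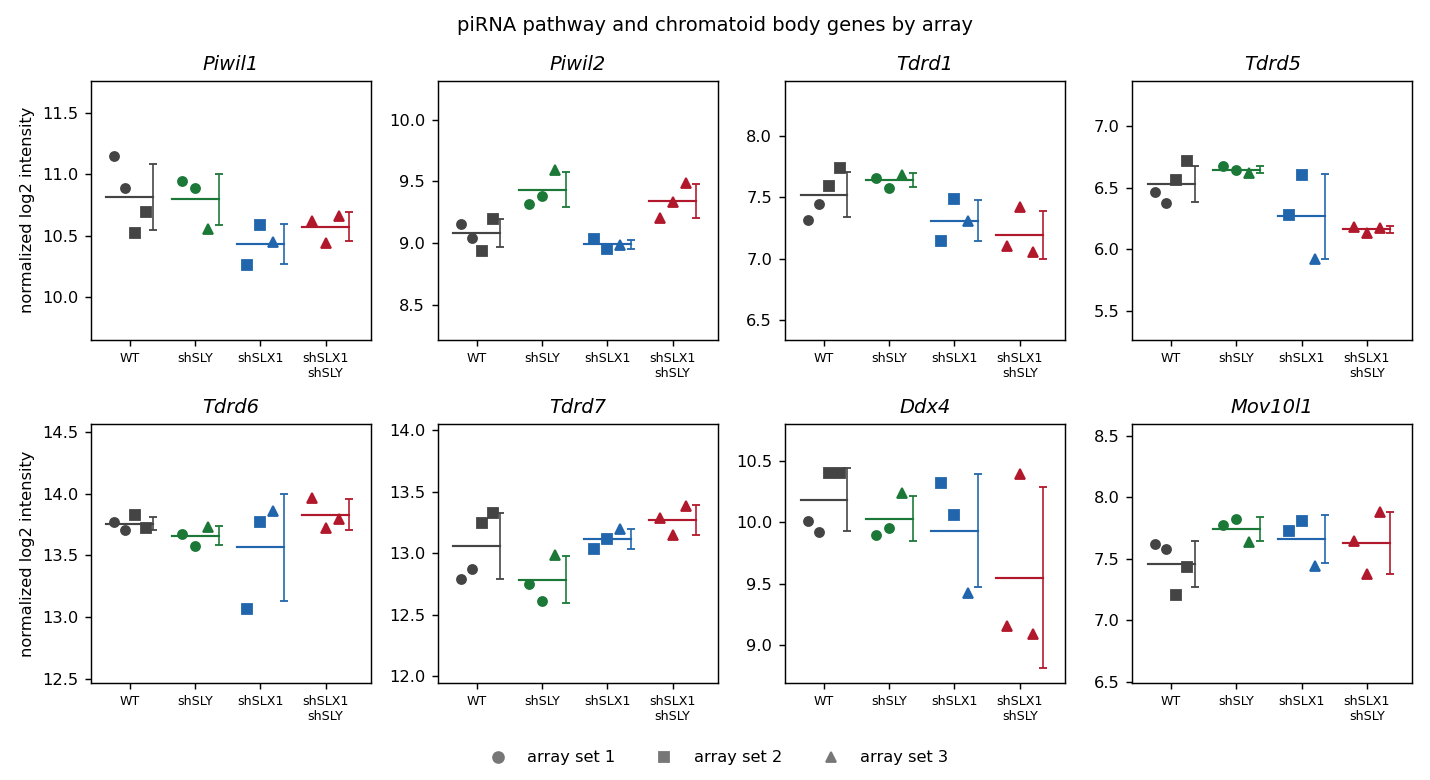
Normalized log2 intensity of the 8 detected members on each array, by group, from the probe that represents each gene. Points are arrays, with the symbol giving the array set, lines are group means and bars are 1 SD, and every panel spans the same number of log2 units. Piwil2 lies at 9.32 to 9.60 on shSLY against 8.94 to 9.19 on WT, and Tdrd5 at 6.13 to 6.18 on shSLX1shSLY against 6.38 to 6.71 on WT.

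Counts over the 8 tested members are set beside those over all 14660 genes or single probes tested. The comparisons with WT share the same 4 arrays. For shSLY against WT 0 members were called, against 3.08% of all features, and 1 had an unadjusted p under 0.05, against 15.1%. Arrays of the groups did not overlap for 2 members, against 17.3% of all features. The median difference was 0.049 over members and −0.016 over all features, with 4 members higher and 4 lower. The 95% intervals of the members lay between −0.76 and 0.62.

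For shSLX1 against WT 0 members were called, against 1.78% of all features. An unadjusted p under 0.05 was found for 1 member, Piwil1, against 12.1%, and no member had groups that did not overlap, against 12.3%. The median difference was −0.20 over members, with 2 higher and 6 lower, and −0.015 over all features. The member intervals lay between −0.86 and 0.53.

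For shSLX1shSLY against WT 0 members were called, against 8.89% of all features. Unadjusted p-values were under 0.05 for 3 members, Tdrd1, Tdrd5 and Ddx4, against 31.0%, and the groups did not overlap for 2, Piwil2 and Tdrd5, against 34.8%. The member median was −0.083 and the median of all features −0.019, and the median size of a difference, without sign, was 0.25 for members and 0.26 for all features. The member intervals reached from −1.25 to 0.55, the lower end being that of Ddx4.

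For shSLX1shSLY against shSLY 0 members were called, against 0.102% of all features. In that comparison 3 members had an unadjusted p under 0.05, Tdrd1, Tdrd5 and Tdrd7, against 20.3%, and the groups of these 3 did not overlap, against 21.9%. For shSLX1shSLY against shSLX1 0 members were called, against 7.54%, and Piwil2 was the 1 member with an unadjusted p under 0.05, against 25.8%, and the 1 with groups that did not overlap, against 26.3%. The interaction, which asks whether the effects of the transgenes add up on the log2 scale, gave 0 called members, against 1.37%, and 0 with an unadjusted p under 0.05, against 9.93%. Its smallest member p was that of Tdrd7, at 0.43 (standard error 0.23, adjusted p = 0.567, limma).

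**Figure D3:**
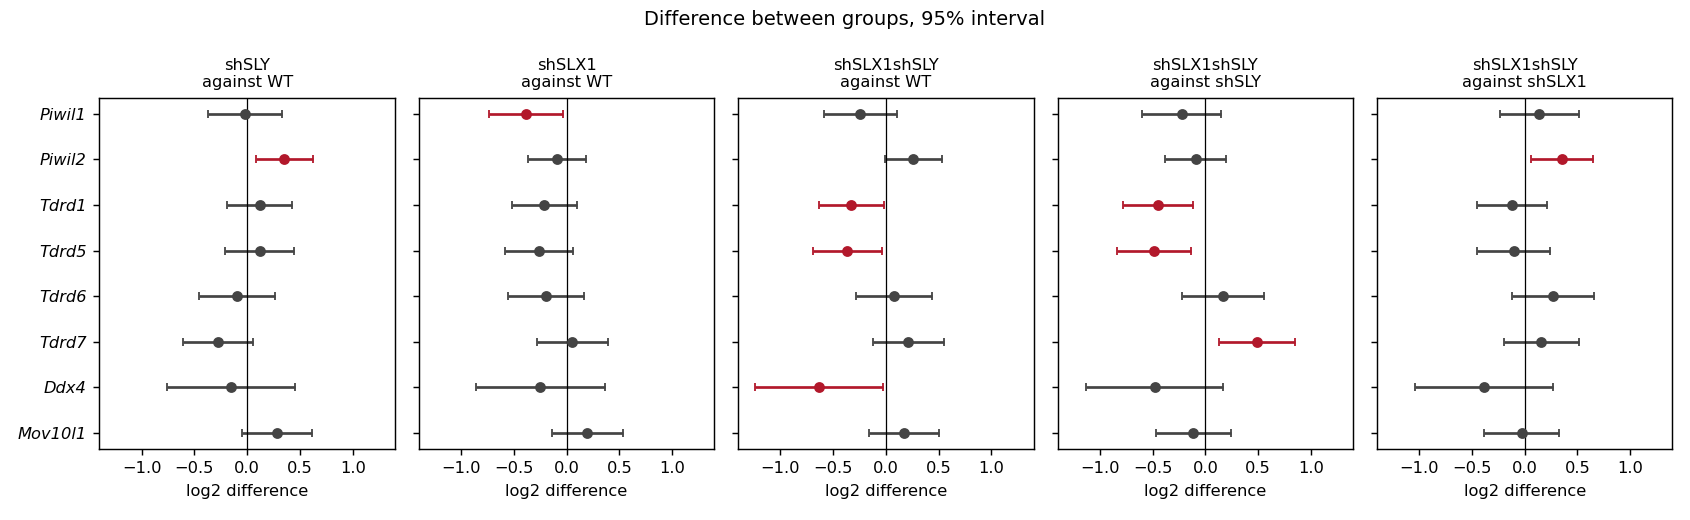
Log2 difference of each detected member in the 5 comparisons between groups, with 95% intervals from limma. Red marks intervals that exclude 0, which are Piwil2, Piwil1, then Tdrd1, Tdrd5 and Ddx4, then Tdrd1, Tdrd5 and Tdrd7, then Piwil2 from left to right, and none of these differences passed the adjusted threshold.

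The WT arrays themselves differed by set. The mean of WT replicates 3 and 4 minus that of WT replicates 1 and 2 was 0.46 for Tdrd7, 0.44 for Ddx4, 0.28 for Tdrd1, 0.22 for Tdrd5 and 0.035 for Tdrd6. It was −0.41 for Piwil1, −0.28 for Mov10l1 and −0.034 for Piwil2. Beside these, the difference between shSLX1shSLY and shSLY was 0.49 for Tdrd7, that between shSLX1shSLY and WT was −0.63 for Ddx4, and that between shSLX1 and WT was −0.38 for Piwil1. These differences between WT arrays were not tested.

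The members did not vary as 1 group. Over the 13 arrays the highest correlation between members was that of Tdrd1 with Tdrd5 (Pearson r = 0.77), then Tdrd1 with Ddx4 (r = 0.65) and Tdrd5 with Ddx4 (r = 0.54). After group means were taken off, these were 0.42, 0.58 and 0.38, and the highest was that of Piwil1 with Mov10l1, at 0.68. With group differences left in, the lowest was that of Piwil1 with Tdrd7, at −0.60. These are descriptions over arrays that share groups and sets. Among the 11157 genes compared, those whose values were most like a member's over the arrays were Rsph6a for Piwil1 (r = 0.95), Hmx1 for Piwil2 (r = 0.93), Zcchc17 for Tdrd1 (r = 0.88), Thap1 for Tdrd5 (r = 0.96), Tor1aip2 for Tdrd6 (r = 0.93), Pum2 for Tdrd7 (r = 0.96), Xrn2 for Ddx4 (r = 0.97) and Cdc7 for Mov10l1 (r = 0.86).

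The promoters of Tdrd1, Tdrd5 and Ddx4 are shown because their values over the 13 arrays, with group differences left in, had the highest correlations among members. They are RefSeq windows of 300 bases on GRCm38.p6, from 250 before to 50 after the transcript start. Capitals mark matches on either strand to the MYB core (AACTG or AACGG), the CRE core (TGACG) and the CCAAT box (CCAAT). Of the 3 Tdrd1 windows the first by position is shown, chr19:56825959-56826258 on the plus strand. The third, chr19:56830462-56830761, had 1 CRE core match, which the window shown lacks. The Tdrd5 window is chr1:156303299-156303598 and the Ddx4 window chr13:112652261-112652560, both on the minus strand.
Tdrd1: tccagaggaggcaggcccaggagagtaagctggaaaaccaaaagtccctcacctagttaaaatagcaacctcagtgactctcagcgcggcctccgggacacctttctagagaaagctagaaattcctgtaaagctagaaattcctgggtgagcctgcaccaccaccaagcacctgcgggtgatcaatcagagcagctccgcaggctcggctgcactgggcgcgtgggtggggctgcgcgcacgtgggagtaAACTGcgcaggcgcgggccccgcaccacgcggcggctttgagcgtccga
Tdrd5: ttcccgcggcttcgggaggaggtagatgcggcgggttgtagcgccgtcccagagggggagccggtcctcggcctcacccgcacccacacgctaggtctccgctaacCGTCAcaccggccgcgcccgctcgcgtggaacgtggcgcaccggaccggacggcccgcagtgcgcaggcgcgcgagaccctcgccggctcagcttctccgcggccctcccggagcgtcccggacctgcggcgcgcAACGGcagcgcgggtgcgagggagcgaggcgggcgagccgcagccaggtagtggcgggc
Ddx4: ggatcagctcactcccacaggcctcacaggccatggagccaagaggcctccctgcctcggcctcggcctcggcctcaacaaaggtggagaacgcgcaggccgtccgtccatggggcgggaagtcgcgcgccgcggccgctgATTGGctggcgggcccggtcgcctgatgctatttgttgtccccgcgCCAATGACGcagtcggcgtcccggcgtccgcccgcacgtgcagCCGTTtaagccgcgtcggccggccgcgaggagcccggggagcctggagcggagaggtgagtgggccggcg

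The MYB core, bound by the spermatocyte factor A-MYB, was matched in 11 of the 13 windows of the 8 members that had one, against 55.1% of 32851 windows of all genes. The CRE core, which the spermatid activator CREM binds, was matched in 4 of the 13, against 20.8%. The full CRE (TGACGTCA) was matched in 0, against 1.79%, and the CCAAT box in 4, against 37.4%. Windows of 1 gene overlap for Tdrd1. In the windows shown, Tdrd1 had 1 match, Tdrd5 had 2 and Ddx4 had 4, with its CCAAT box and CRE core sharing bases. These are matches of letters and not sites of binding. Piwil2 and Tdrd6 were not matched to a window.

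Other genes of the pathway were taken from 2 lists. Of 21 further piRNA pathway genes 15 were tested, and 1 was called in any of the 6 comparisons. That gene was Stk31, which encodes a Tudor domain kinase of the male germ line. Its log2 intensity was 5.66, 5.37, 5.37 and 5.78 on WT and 7.15, 6.89 and 7.49 on shSLX1shSLY. It was 5.67, 5.30 and 7.16 on shSLY and 5.56, 5.29 and 7.15 on shSLX1. The difference between shSLX1shSLY and WT was 1.63, a 3.10-fold higher level (standard error 0.43, adjusted p = 0.0308, limma), against 8.89% of features called.

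The Stk31 values followed the array set. All 5 arrays of set 3 lay at 6.89 to 7.49 and all 8 arrays of sets 1 and 2 at 5.29 to 5.78, whatever their group. Within set 3 the shSLX1shSLY mean was 7.18 and that of the single-line arrays 7.16. With the array set as a block the difference from WT was −0.069 (adjusted p = 0.953), which ends the call and turns its sign. The difference stayed at 1.63 without a detection filter and at 1.47 to 1.78 over the arrays left out, although the adjusted p lay above 0.05 without the filter (0.0751) and without any 1 array of WT or of shSLX1shSLY.

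Of 17 further chromatoid body and RNA granule genes 16 were tested, and Dcp1a and Ago2 were called. Dcp1a encodes a cofactor of mRNA decapping. It was at 7.20, 7.33, 6.78 and 7.06 on WT, at 7.64, 7.35 and 7.39 on shSLY, at 7.83, 8.72 and 8.61 on shSLX1, and at 7.30, 7.36 and 6.97 on shSLX1shSLY. All shSLX1 arrays, from 2 array sets, lay above all other arrays. The rise in shSLX1 against WT was 1.30, or 2.46-fold (standard error 0.21, adjusted p = 0.00207, limma), against 1.78% of features called. The shSLX1shSLY level was lower than that of shSLX1 by a log2 difference of −1.18 (adjusted p = 0.00430, limma), against 7.54% called, and the interaction was −1.55 (standard error 0.30, adjusted p = 0.0170, limma), against 1.37% called.

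Dcp1a had 5 probes, of which 3 were detected, and these values are those of the one with the highest mean. The other detected probes were dimmer, with means of 5.19 and 5.49 against 7.50, where member probes that were not kept had means of 4.38 to 4.52. These 2 probes gave −0.21 and −0.19 for shSLX1 against WT, with limma adjusted p-values of 0.688 and 0.648. The mean of the kept Dcp1a probes differed by 0.30 and was not called. The direction of Dcp1a thus rests on 1 probe. The call of the interaction was also lost without a detection filter and without shSLY replicate 1, shSLX1 replicate 2 or shSLX1shSLY replicate 3, with values of −1.83 to −1.38 over the arrays left out.

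Ago2 encodes an Argonaute protein that binds microRNAs. It was at 4.88, 5.18 and 5.47 on shSLX1, at 6.02, 5.85 and 6.05 on shSLX1shSLY, at 5.59, 5.58, 5.72 and 5.46 on WT and at 5.77, 5.92 and 5.85 on shSLY. The rise in shSLX1shSLY against shSLX1 was 0.80, or 1.74-fold (standard error 0.15, adjusted p = 0.00554, limma), against 7.54% called. The second detected Ago2 probe differed by 0.064 (adjusted p = 0.822), and the mean of the kept probes by 0.43 (adjusted p = 0.0662). Without background correction the Ago2 difference was 0.37 and with the authors' normalized values 0.36, both under the fold limit. With a block for array set it was 0.61 (adjusted p = 0.0514).

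**Figure D4:**
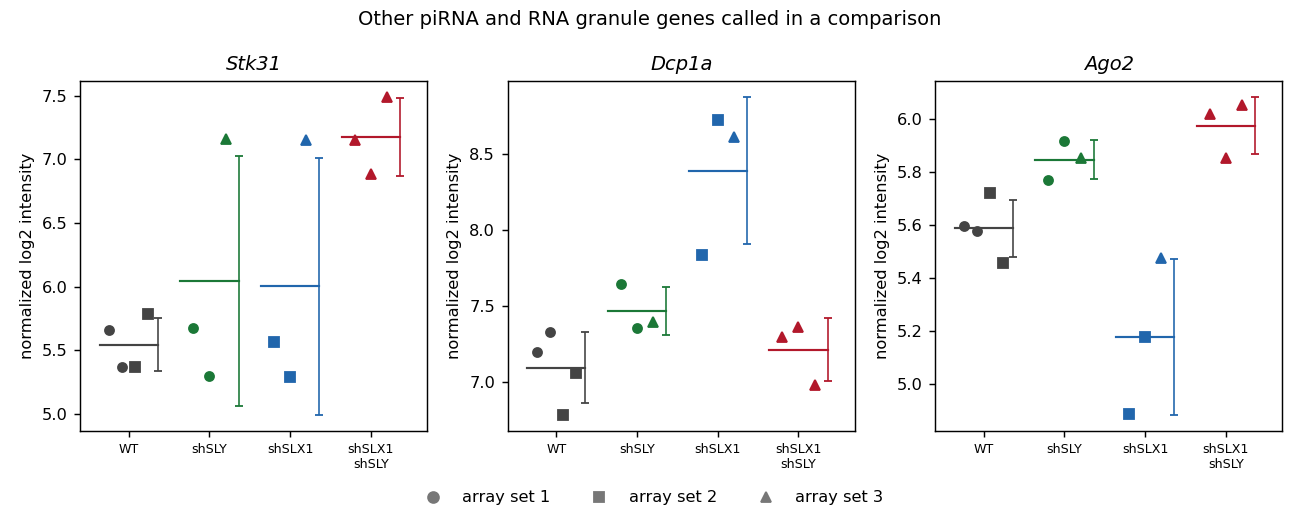
Normalized log2 intensity of Stk31, Dcp1a and Ago2 on each array, by group. Points are arrays, with the symbol giving the array set, lines are group means and bars are 1 SD, and the axes differ between panels. Stk31 lies at 6.89 to 7.49 on every array of set 3 and at 5.29 to 5.78 on the rest, while Dcp1a is highest on the shSLX1 arrays.

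No gene of either list was called in shSLY against WT, against 3.08% of all features, or in shSLX1shSLY against shSLY, against 0.102%. In shSLY against WT limma gave an unadjusted p under 0.05 for 2 of the 15 piRNA genes and 1 of the 16 granule genes. The share over all features was 15.1%. The smallest were those of Dnmt3l, a cofactor of DNA methylation in the germ line, at −0.37 (95% interval −0.67 to −0.070, adjusted p = 0.214), and Upf1, a helicase of nonsense-mediated decay, at 0.48 (95% interval 0.014 to 0.94, adjusted p = 0.317). Dnmt3l lay at 9.60 to 9.65 on WT and at 9.28, 9.33 and 9.17 on shSLY. In shSLX1shSLY against shSLY, 2 genes of each list had an unadjusted p under 0.05, against 20.3% of all features. The smallest were those of Hspa2, a heat shock protein of spermatogenic cells, at 0.43 (95% interval 0.11 to 0.76, adjusted p = 0.161), and Dicer1, the endonuclease that makes microRNAs, at −0.51 (95% interval −0.93 to −0.084, adjusted p = 0.194).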

How the data were processed

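RNA of purified round spermatids was hybridised to 13 single-colour arrays. The authors deposited bead summary intensities, on the linear scale and not normalized, and a detection p-value per probe and array. The authors also deposited a table of normalized intensities with equal quantiles, which was used as an alternative. The submitters' processing notes name GenomeStudio 2011.1, and the methods name BeadStudio with its custom error model. Further settings are unstated in the sources used here.

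The neqc function of limma 3.58.1 (R 4.3.3) took the negative control level from the detection p-values, subtracted background, added an offset of 16, equalised the quantiles of the arrays and gave log2 values. A probe was kept when 3 or more arrays had its detection p below 0.05, which held for 20250 of 45281 probes. A gene was represented by its kept probe with the highest mean. Probe names came from the platform annotation, updated by gene identifier through RefSeq. The limma model had 1 mean for each group and all 13 arrays, with degrees of freedom of 9 (residual) and 5.64 (prior), and p-values were adjusted over all 14660 features tested. The fit was tested on simulated arrays, drawn as independent normal values with the gene means and spreads of the real ones. These held no array sets, so the test cannot tell how the fit holds where sets and groups run together. The number of arrays limits the precision. Array sets came from Ward clustering on the probes detected nowhere, cut at 3 sets. Replicates are separate preparations per the labels.

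The members and lists were chosen with earlier results of these data known. The genes named are all members, the genes of the other lists that were called or, where none was, the 2 with the smallest p, and for each detected member the gene with the highest correlation. Same-numbered WT and shSLY arrays deviated together from their group means (r = 0.11, 0.25 and 0.25), as did shSLY and shSLX1 arrays (0.17, 0.27 and 0.46). This pattern comes from the values alone, since labels and methods give no pairing, and other pairs of groups did not show it. Replicates 1 and 2 of WT and shSLY are all in array set 1, and replicate 3 of shSLY and of shSLX1 are both in set 3. The part of the array set in this pattern was not tested. Figures used matplotlib 3.10.9 (Python 3.11.15). No probe or protein sequence was used here.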

Additional observations from a re-analysis of the deposited data

Results flagged for a closer look

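One Piwil4 probe that entered no comparison had a detection p of 0.0235 on 1 array, shSLX1shSLY replicate 1, with a log2 intensity of 5.15, and lay at 4.67 or below on the 12 other arrays. It was picked out as a signal in data outside the comparisons. It was the 1 such value among the 78 probe and array pairs of the 6 member probes that were not kept. No member value stood apart among the 4 WT arrays by the gap between neighbours, in 10 probes examined, and no interaction of a member passed the threshold.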

How the results depend on the processing

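The count of called members stayed at 0 under every alternative for shSLY against WT, shSLX1 against WT, shSLX1shSLY against shSLX1 and the interaction. For shSLX1shSLY against WT it was 1 (Ddx4) with array quality weights, where 2200 of all 14660 features were called. Over the arrays left out in turn the member count was 0 to 1, with 262 to 1744 features called. For shSLX1shSLY against shSLY it was 0 to 1 over the arrays left out (Tdrd7), with 0 to 1863 features called. In that comparison array quality weights called 2597 features. With these weights limma gave adjusted p-values of 0.0055 for Tdrd1, 0.0039 for Tdrd5 and 0.0035 for Tdrd7. These then missed only the fold limit, as did Tdrd5 in shSLX1shSLY against WT with only the groups compared (0.0487). A replicate block gave 0 in each comparison. Of the 48 member differences 32 kept their sign in all alternatives. Those that changed sign without a main interval clear of 0 were taken to have no direction. Ddx4 in shSLX1shSLY against WT turned to 0.43 with the mean of its kept probes and to 1.502 with its other probe, an alternative chosen after seeing the data, and Stk31 turned to −0.069 with the array set as a block. The cause was not tested. The interaction needs all groups, so it has no fit on only the groups compared.

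The counts over all features moved more. Over the arrays left out they were 253 to 513 for shSLY against WT (452 with all), 182 to 330 for shSLX1 (261), 262 to 1744 for shSLX1shSLY (1303), 0 to 1863 for shSLX1shSLY against shSLY (15), 549 to 2609 against shSLX1 (1105) and 111 to 270 for the interaction (201). The remaining alternatives gave 271 to 743, 118 to 350, 44 to 2200, 0 to 2597, 580 to 2368 and 75 to 1249 in the same order. With the replicate block they were 296, 182, 1293, 62, 1187 and 138. The 44 came with the array set as a block. The background percentages beside the members' counts move with them.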
